A study of Mus musculus with 11 samples.

Results

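Respiratory complex I, the NADH:ubiquinone oxidoreductase of the inner mitochondrial membrane, was followed through the 37 nuclear genes whose symbols are Nduf followed by the letter a, b, c, s, v or ab and a number. These 37 were taken from 32531 genes counted in each of 11 libraries, and the assembly factors named Ndufaf were left out of the members. The libraries came from adult mice carrying the Glt25d2-EGFP/Rpl10a (DU9) transgene, which places a green fluorescent tag on a ribosomal protein in cells that use the Glt25d2 promoter, so that their ribosome-bound RNA can be pulled down (translating ribosome affinity purification, TRAP). Immunopurified (IP) RNA was available after intravenous cocaine self-administration with short access (3 libraries), in yoked controls (3 libraries) and after saline self-administration (3 libraries). A single library of unbound RNA came from the cocaine condition and a single library of input RNA from the saline condition. All mice carried the transgene. The labels call the tissue cerebral cortex, while the extraction text names the striatum. They state neither how many mice stand behind a library nor what the yoked mice received, so p-values measure the spread between libraries, which may be technical.

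Complex I is the entry point of electrons from NADH into the respiratory chain. Its matrix arm holds the flavin and iron-sulfur clusters that carry electrons to ubiquinone, and its membrane arm pumps protons, which ATP synthase uses to make ATP. The membrane-embedded core subunits are encoded by mitochondrial DNA and fall outside the symbol rule, whereas the core subunits of the matrix arm and all accessory subunits are nuclear and translated on cytosolic ribosomes. Neurons depend on this chain for the ATP that restores ion gradients after firing. By role, 7 members are core subunits of the matrix arm, 9 are accessory subunits of the matrix arm, 9 belong to the proximal and 10 to the distal membrane arm. Ndufab1, the mitochondrial acyl carrier protein, sits in both arms, and Ndufa4 is now assigned to complex IV although it keeps its complex I name. The 37 genes lie on 15 chromosomes, with 5 on chromosome 17, 4 on chromosome 1 and 2 (Ndufa1 and Ndufb11) on the X chromosome.

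Because the members moved together in the results that follow, their promoters were read from RefSeq for GRCm38.p6, as 300 bases each (250 before to 50 after the annotated start). A promoter was found for 33 of the 37. Motif letters of the factors YY1 (AAGATGGC), NRF1 (GCGCATGC) and GABP (CCGGAAG), which are known to bind promoters of nuclear respiratory genes, were searched for on both strands. The YY1 letters were in 7 of 33 members' promoters (21.2%), against 2.75% of all 32851 promoters in the table. The NRF1 letters were in 3 members (9.09%), against 2.71% of all promoters, and the GABP letters in 4 (12.1%), against 8.86%. These member shares are per gene, while those of all promoters are per promoter. Per promoter, the members' shares were 20% for YY1, 8.57% for NRF1 and 11.4% for GABP (35 promoters). No member held more than a single kind of these motifs, and 19 of the 33 held none. The YY1 letters contain the triplet ATG, and in 6 of the 7 members that triplet was matched to the annotated start codon. In the remaining member, Ndufa3, the bases from that triplet on (atggccgggag) also open the coding sequence, after which the promoter and the coding bases differ. Ndufb8, a distal membrane arm subunit, is shown as an example with the YY1 letters at the start codon, in capitals (GRCm38.p6, minus strand, chr19:44555393-44555692). Ndufa11, a proximal membrane arm subunit, is shown as an example with NRF1 in capitals, where the letters on the opposite strands overlap (plus strand, chr17:56717512-56717811).

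Ndufb8 promoter: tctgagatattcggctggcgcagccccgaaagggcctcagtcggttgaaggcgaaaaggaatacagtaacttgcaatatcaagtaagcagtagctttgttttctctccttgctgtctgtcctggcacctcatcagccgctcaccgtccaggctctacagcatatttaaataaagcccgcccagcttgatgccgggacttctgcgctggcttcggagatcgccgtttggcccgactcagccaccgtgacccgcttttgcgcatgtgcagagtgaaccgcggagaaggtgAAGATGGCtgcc

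Ndufa11 promoter: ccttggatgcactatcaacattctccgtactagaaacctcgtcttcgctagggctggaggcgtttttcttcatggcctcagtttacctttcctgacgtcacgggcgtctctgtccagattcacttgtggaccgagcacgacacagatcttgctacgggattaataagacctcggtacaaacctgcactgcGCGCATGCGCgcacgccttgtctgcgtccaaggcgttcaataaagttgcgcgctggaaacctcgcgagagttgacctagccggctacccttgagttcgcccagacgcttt

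The second set of sequences shows the first 90 coding bases of the 3 members with the highest and the 3 with the lowest ratio between the cocaine and saline libraries numbered 1, since the base composition of the transcripts varied with that ratio. Every G and C is in capitals. The bases come from the GENCODE M21 annotation of GRCm38.

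Ndufa7, high ratio: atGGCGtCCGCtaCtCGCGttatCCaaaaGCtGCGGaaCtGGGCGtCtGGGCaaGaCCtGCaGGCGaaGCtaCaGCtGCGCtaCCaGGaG
Ndufb8, high ratio: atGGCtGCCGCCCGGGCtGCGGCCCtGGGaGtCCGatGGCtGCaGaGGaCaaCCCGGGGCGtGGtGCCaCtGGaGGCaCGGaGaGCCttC
Ndufa11, high ratio: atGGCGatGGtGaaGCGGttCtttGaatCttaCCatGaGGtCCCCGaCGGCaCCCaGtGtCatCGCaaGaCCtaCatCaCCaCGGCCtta
Ndufs1, low ratio: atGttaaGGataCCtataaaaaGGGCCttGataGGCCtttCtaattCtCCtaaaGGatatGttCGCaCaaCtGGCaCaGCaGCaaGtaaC
Ndufc2, low ratio: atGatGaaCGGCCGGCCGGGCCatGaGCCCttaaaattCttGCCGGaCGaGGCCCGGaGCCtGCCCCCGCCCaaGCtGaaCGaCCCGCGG
Ndufb3, low ratio: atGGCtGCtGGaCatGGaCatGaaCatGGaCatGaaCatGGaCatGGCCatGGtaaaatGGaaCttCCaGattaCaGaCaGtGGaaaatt

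G and C made up 61.1% of these bases in Ndufa7, 72.2% in Ndufb8 and 54.4% in Ndufa11. They made up 41.1% in Ndufs1 and 43.3% in Ndufb3, while Ndufc2 stood out among the low-ratio members with 67.8%. Over its whole transcript, Ndufc2 had 48.8% G and C, below the 55.3% of Ndufa7 and Ndufb8 and the 58.2% of Ndufa11.

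Libraries that share a replicate number share an index barcode, and the 3 treatments were run on 3 separate sequencing lanes, so a lane and a treatment cannot be told apart. Counts in genes ranged from 20926712 in the unbound library to 53862653 in saline IP replicate 1. The 3 IP libraries numbered 1 stood apart from the other 6 over the whole transcriptome: 27.6% of 16417 genes tested were higher and 27.7% lower in them. Cocaine IP replicate 1 stood apart further, with 47.05% of its reads assigned to several places and 8.001% of its gene counts in the ribosomal RNA gene Rn45s, the highest of the 11 libraries on both. Results on treatment are therefore given with and without the libraries concerned.

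All 37 subunit genes passed the filter on low counts, and their summed share of the counts shows the main pattern. The share was 0.820% in cocaine IP replicate 1, against 0.320% and 0.328% in replicates 2 and 3. In the yoked IP libraries it was 0.450% in replicate 1, against 0.308% and 0.260%, and in the saline IP libraries 0.4998% in replicate 1, against 0.2845% and 0.3187%. The single unbound library had 0.255% and the input library 0.324%. The libraries numbered 1 were thus the highest of each treatment, and the 6 other IP libraries lay between 0.260% and 0.328%.

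**Figure D1:**
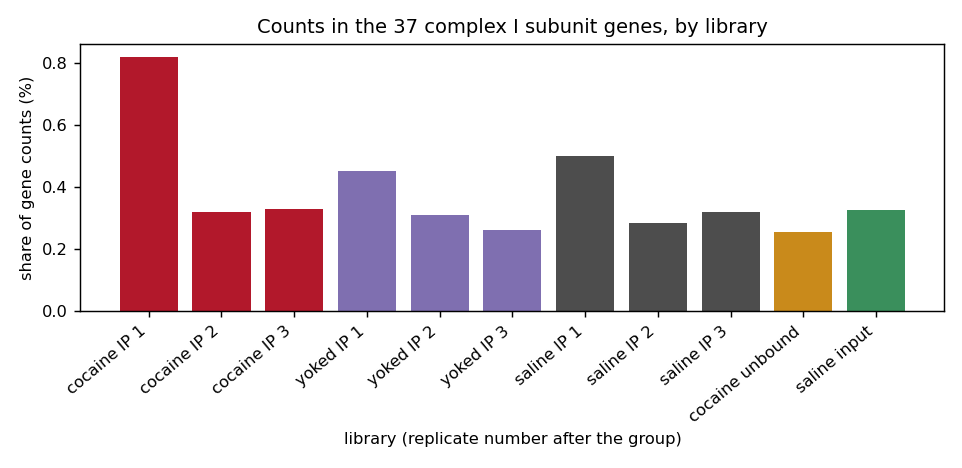
Share of all gene counts (%, vertical axis) that fell in the 37 complex I subunit genes in each of the 11 libraries (1 bar per library). The bar of cocaine IP replicate 1 reaches 0.820%, and each of the other libraries numbered 1 stands above the replicates 2 and 3 of its own treatment.

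Levels of the subunit genes can be compared with each other only per length. In the input library, in CPM (read counts scaled to a common library total, with TMM factors over the 11 libraries) per kilobase of exon, Ndufa4 was highest at 171.2, followed by Ndufb9, a distal membrane arm subunit, at 155.0 and Ndufc2, of the proximal membrane arm, at 153.2. Ndufab1 was lowest at 1.27, below Ndufs1 at 10.49 and Ndufb2 at 10.63. Ndufs1 carries iron-sulfur clusters and is the largest subunit. Ndufa4 and Ndufb9 stayed in places 1 and 2, and Ndufab1 in place 37, whether length was the exon union, the representative transcript or the mean transcript. Other places depended on that choice: Ndufb2 was at 35, 8 and 32, Ndufs1 at 36, 33 and 27, and Ndufc2 at 3, 6 and 3. For Ndufab1, 31.2% of the 50-base stretches of the transcript also occur in other genes, so a read of that length would match more than a single gene. That share was 41.2% for Ndufs5, 39.7% for Ndufs3, 37% for Ndufb4, 34.1% for Ndufb6 and 33.5% for Ndufb2. The levels of these members are uncertain in the same way. With 1 input library, neighbours in this order have no measured spread.

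All 37 subunit genes were higher in the libraries numbered 1 than in numbers 2 and 3, in a fit that took treatment into account (edgeR, adjusted p from 4.4e-07 to 0.0014). The same call was made for 27.6% of all genes. The median log2 fold change of the members was 1.01, a 2.02-fold difference, while that of all genes tested was 0.01. The range ran from 0.59 for Ndufa8, an accessory subunit of the proximal membrane arm, to 1.25 for Ndufa2, an accessory subunit of the matrix arm, and 20 of the 37 were at least 2-fold higher. In 36 of 37, all 3 libraries numbered 1 exceeded all 6 others, a pattern found in 21.0% of genes, and the reverse pattern, found in 24.9% of genes, occurred in no member. Ndufb7, of the distal membrane arm, was the exception, because its 72.6 CPM in yoked replicate 1 lay under the 74.2 CPM of saline replicate 3. Numbers 2 and 3 differed in none of the 37 (edgeR, 0% of all genes called; 1 member and 1.95% of all genes at an unadjusted p under 0.05), with a median of -0.01 for number 3 over number 2. Within treatments, the median log2 ratio of number 3 to number 2 was -0.004 in cocaine, -0.21 in yoked (33 of 37 members below 0) and 0.21 in saline libraries (31 of 37 above 0).

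**Figure D2:**
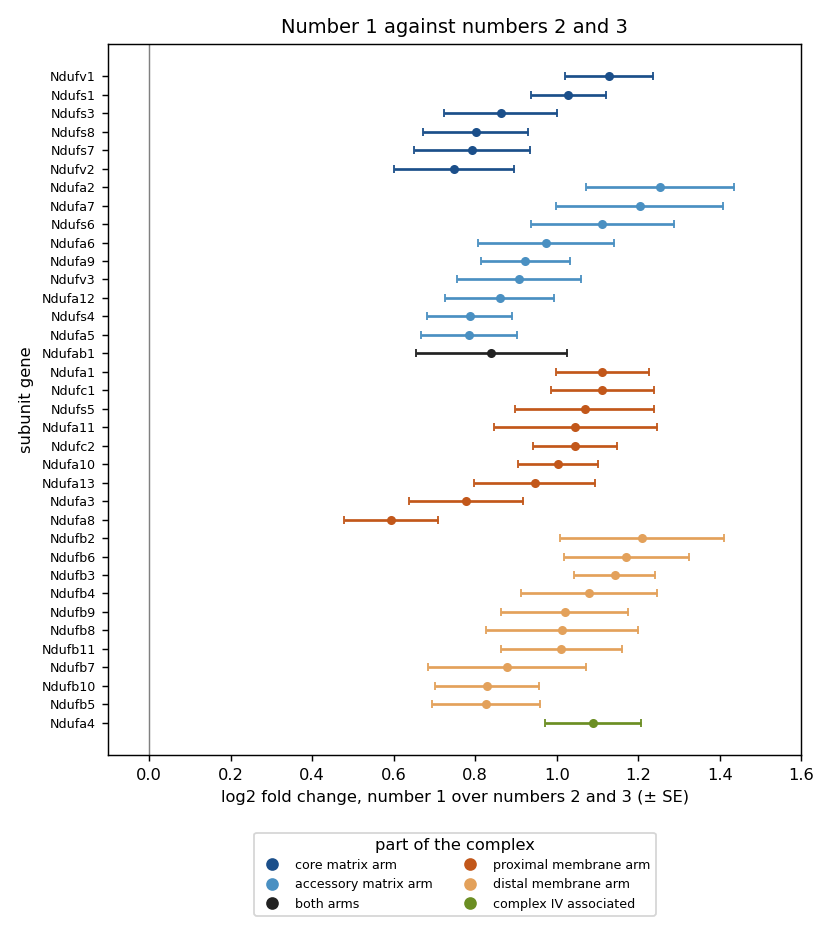
Log2 fold change of each subunit gene in the libraries numbered 1 over those numbered 2 and 3 (horizontal axis; points are edgeR estimates, bars are ± 1 standard error, 9 IP libraries), grouped by place in the complex; 36 of the 37 are drawn. All points lie above 0, between 0.59 (Ndufa8) and 1.25 (Ndufa2), and the groups overlap.

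Subunits of every part of the complex were higher. The median log2 fold change was 0.86 over the 7 core subunits of the matrix arm, 0.92 over its 9 accessory subunits, 1.05 over the proximal and 1.02 over the distal membrane arm, and every member of each group was called higher. Among the core subunits, Ndufv1, which binds NADH and the flavin, had 288.2 CPM in cocaine, 181.9 in yoked and 198.6 in saline replicate 1, against 89.7 to 121.1 CPM in the 6 other IP libraries. Its log2 fold change was 1.13 ± 0.11 (SE, edgeR adjusted p = 9.4e-07). The libraries numbered 1 were separated from the others by a wide gap, and cocaine replicate 1 was the highest. Ndufs1 had 175.7, 171.0 and 165.8 CPM in the cocaine, yoked and saline libraries numbered 1, against 79.95 to 96.05 CPM in the others, for a log2 fold change of 1.03 ± 0.09 (SE, edgeR adjusted p = 5.3e-07). Its 3 libraries numbered 1 differed by 5.98% from the lowest to the highest, the smallest spread of the 37, the next being Ndufb3 with 39.6%. Ndufs3, Ndufs7 and Ndufs8, which belong to the part of the matrix arm nearest the membrane, rose by 0.86, 0.79 and 0.80, and Ndufv2, the partner of Ndufv1, rose by 0.75.

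Accessory subunits spanned a wider range than the core subunits. Ndufa2 had 220.5, 85.8 and 99.9 CPM in cocaine, yoked and saline replicate 1, against 48.1 to 63.05 CPM in the 6 others. Ndufb2, Ndufa7 and Ndufb6 followed with log2 fold changes of 1.21, 1.20 and 1.17. Ndufb6 shares 39.0% of its exon bases with another gene. Reads there may have been set aside as ambiguous, so its level is uncertain. At the low end, Ndufa8 had 137.9, 83.5 and 97.5 CPM in cocaine, yoked and saline replicate 1, against 59.3 to 78.8 CPM in the others, still with no overlap. Ndufs4, Ndufa5 and Ndufa3 followed from below with 0.79, 0.78 and 0.78. Ndufs4 is known in human patients and in knockout mice for its loss causing Leigh-like encephalopathy. Ndufa4 rose by 1.09 and Ndufab1 by 0.84, within the range of the other subunits.

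The size of the difference varied with treatment, which was not tested. Set against replicates 2 and 3 of the same treatment, replicate 1 was higher by a median log2 ratio over the 37 members of 1.39 in cocaine, 0.66 in yoked and 0.72 in saline libraries. Without cocaine replicate 1 all 37 members remained called (edgeR), with a median log2 fold change of 0.69. Members with the YY1 letters in the promoter had log2 fold changes of 0.78 to 1.11, those with NRF1 letters 0.59 to 1.05 and those with GABP letters 0.80 to 1.17. The 19 with none of these letters ranged from 0.75 to 1.21, so the values overlapped.

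Other genes of the same pathway showed the following values. Of 38 subunits of complexes II to V, 37 were called higher in the libraries numbered 1 (edgeR), with a median log2 fold change of 1.03. Atp5g2, an ATP synthase subunit c gene, was the exception at 0.54 ± 0.39 (SE, edgeR adjusted p = 0.26). Of 14 complex I assembly factors, 13 were called higher, with a median of 0.68, led by Nubpl, an iron-sulfur protein needed for assembly, at 1.12. Ndufaf4 had 0.24 and did not pass (edgeR adjusted p = 0.072). Regulators of mitochondrial biogenesis did not move in the same direction, with 2 of 12 called higher, 4 lower and a median of -0.12. Polrmt, the mitochondrial RNA polymerase, rose by 0.81, and Ppargc1b, a coactivator of respiratory genes, fell by 2.26. Nrf1 and Gabpa, the genes of the NRF1 factor and of a GABP subunit, fell by 0.41 and 0.56, and Yy1 had -0.20 and did not pass (edgeR adjusted p = 0.10).

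Markers of cell types and of nuclear RNA moved in the same comparison, and their part in the result was not tested. All 8 markers of layer 5 pyramidal tract neurons, the cells that the transgene is known to label, were called higher, with summed levels of 977.5 to 1082 CPM in the libraries numbered 1 and 512.2 to 652.7 CPM in the other 6. Among them Colgalt2, the current name of Glt25d2, had 138.4, 148.4 and 135.8 CPM in cocaine, yoked and saline replicate 1, against 76.5 to 104.4 CPM. Astrocyte markers were lower in 6 of 8, with sums of 931.9 to 1353 CPM against 2330 to 2936 CPM. Oligodendrocyte markers were lower in 6 of 8 (550.5 to 718.3 against 1302 to 1828 CPM) and microglial markers in 5 of 8 (10.9 to 19.8 against 23.7 to 41.4 CPM). Interneuron markers were lower in 7 of 8 and higher in 1, endothelial and mural markers higher in 6 and lower in 2, and striatal projection neuron markers lower in 4 and higher in 1. Nuclear noncoding RNAs were lower in 7 of 8, with sums of 219.5 to 441.8 CPM against 2551 to 7434 CPM. No gene of the 7 cell-type lists was at 0 in any library. In the saline input library the sums were 552.9 CPM for layer 5, 2515 CPM for astrocyte and 1573 CPM for oligodendrocyte markers. They were 35.7 CPM for microglial markers and 5458 CPM for nuclear noncoding RNAs. Each lay within the range of the 6 IP libraries not numbered 1. The cocaine unbound library had 566.2, 2130, 2232, 36.5 and 15000 CPM in the same order. Whether purification differed between the IP libraries was not tested. In such bulk RNA, more cells of a type and more RNA per cell cannot be told apart.

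Cocaine self-administration against saline gave no call for any subunit gene. All 37 had estimates above 0, as did 8771 of the 16417 genes tested. The members' median log2 fold change was 0.44 (0.03 over all genes tested). Their range ran from 0.12 to 0.81, but none passed (edgeR, lowest adjusted p = 0.9998 among the members). At an unadjusted p under 0.05 the count was also 0 of 37, and 1.02% of all genes; 0% of all genes passed the adjusted threshold, as they did in a test of any difference among the 3 treatments. The largest estimates were those of Ndufa7 (0.81 ± 0.56, SE), Ndufb8 (0.75 ± 0.48) and Ndufa11 (0.67 ± 0.50). Ndufc2 (0.12), Ndufb3 (0.12) and Ndufc1 (0.13) had the smallest. In no member did all cocaine libraries exceed all saline libraries, which occurred in 2.95% of genes.

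The values by library show where these estimates came from. Ndufa7, an accessory subunit of the matrix arm, had 164.6, 40.9 and 40.03 CPM in cocaine replicates 1 to 3, against 63.3, 35.0 and 43.5 CPM in saline replicates 1 to 3. Ndufb8, whose protein is widely used as an antibody marker of complex I assembly, had 414.2, 121.5 and 115.8 CPM in cocaine libraries, against 165.2, 101.7 and 123.5 CPM in saline libraries. Ndufa11 had 315.8, 81.3 and 94.1 CPM in cocaine, against 132.5, 75.4 and 103.9 CPM in saline. For each of the 3, cocaine replicate 1 was above every saline library and replicates 2 and 3 lay among the saline values. Cocaine replicate 1 was the highest IP library for all 37 members, as for 30.3% of genes. Within replicate numbers, the median log2 ratio of cocaine to saline over the members was 0.81 in number 1, 0.12 in number 2 and -0.07 in number 3. Of the 37 members, 37 were above 0 in number 1, 34 in number 2 and 13 in number 3, and 12 were above 0 in all 3. Of all genes, 53.0%, 50.3% and 51.3% were above 0 in these numbers, and the share above 0 in all 3 was not computed. Without cocaine replicate 1, which leaves a library numbered 1 on the saline side alone, the median of the fitted log2 fold changes was -0.23. With every library numbered 1 left out it was 0.05.

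**Figure D3:**
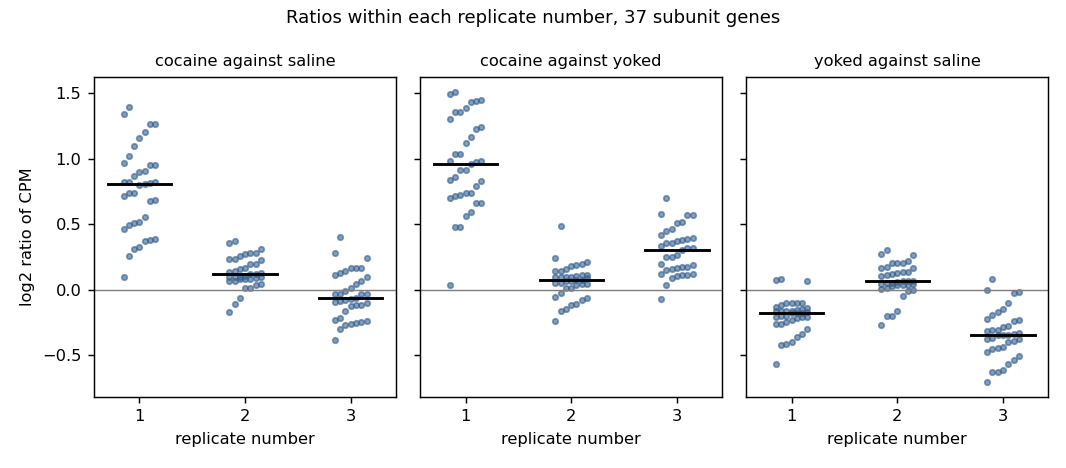
Log2 ratio of CPM between treatments within each replicate number (horizontal axis), 1 point per subunit gene and a black line at the median of the 37. For cocaine over saline and cocaine over yoked the points of number 1 have medians of 0.81 and 0.96, and those of numbers 2 and 3 have medians between -0.07 and 0.30.

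Cocaine self-administration against yoked controls also gave no call. All 37 members had estimates above 0, as did 8448 of the 16417 genes tested. The members' median was 0.58 (0.01 over all genes tested). Their range ran from 0.09 to 0.93 (edgeR, 0 called, 0 at an unadjusted p under 0.05, where 1.11% of all genes stood). The highest were Ndufa7 (0.93), Ndufb8 (0.90) and Ndufb2 (0.86), and the lowest Ndufs1 (0.09), Ndufb3 (0.33) and Ndufa10 (0.36). Ndufb2 had 225.8, 55.5 and 55.4 CPM in cocaine libraries, against 82.5, 60.5 and 42.9 CPM in yoked libraries, so the groups overlapped. No member had all cocaine above all yoked libraries, which occurred in 3.19% of genes. Within numbers 1, 2 and 3 the median ratio was 0.96, 0.07 and 0.30, and 27 members were above 0 in all 3. Of all genes, 50.7%, 51.0% and 51.3% were above 0 in these numbers, and the share above 0 in all 3 was not computed. Without cocaine replicate 1, which leaves a library numbered 1 on the yoked side alone, the median was -0.09. Without any library numbered 1 it was 0.16. The cocaine libraries are shared with the comparison against saline.

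Yoked controls against saline gave small estimates in the other direction. The members' median log2 fold change was -0.16, against 0.004 over all genes tested. Below 0 were 35 of 37 members and 8057 of the 16417 genes tested. No member was called (edgeR, 0 at an unadjusted p under 0.05, where 0.402% of all genes stood). The most negative estimates were those of Ndufb4 (-0.34), Ndufc1 (-0.33) and Ndufc2 (-0.33), and the highest those of Ndufs1 (0.06), Ndufa3 (0.01) and Ndufs7 (-0.0041). Ndufb4 had 31.4, 26.6 and 19.4 CPM in yoked libraries, against 47.4, 26.6 and 24.2 CPM in saline libraries, with nearly equal values in replicate 2. In no member were all yoked below all saline libraries, a pattern of 2.38% of genes. Within numbers 1, 2 and 3 the median was -0.18, 0.07 and -0.35, and 6 members were below 0 in all 3. Of all genes, 50.3%, 51.1% and 51.2% were above 0 in these numbers, and the share below 0 in all 3 was not computed. The estimate changed sign to 0.13 without saline replicate 1 and was -0.41 without yoked replicate 1. Each of these settings leaves a library numbered 1 on a single side of the comparison. Over 12 other settings, among them leaving out every library numbered 1, the median stayed between -0.19 and -0.11.

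With the replicate number as a block the standard errors were smaller, for Ndufb8 in cocaine over yoked 0.22, against 0.48 with no block. No member was called in any of the 3 contrasts, but at an unadjusted p under 0.05 the count became 10 of 37 for cocaine against saline (12.3% of all genes), 33 of 37 for cocaine against yoked (18.3% of all genes) and 2 of 37 for yoked against saline (3% of all genes). For Ndufb8 the blocked log2 fold change of cocaine over yoked was 0.69 ± 0.22 (SE, edgeR adjusted p = 0.15), the call still being lost to the adjustment over all genes. Block medians were 0.31, 0.46 and -0.16 in the same order. The block does not remove the difference of cocaine replicate 1 from the other libraries numbered 1.

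Most members shared an order of levels in the libraries numbered 1. Each treatment has a single such library, on its own lane, so this is an order of libraries. In 34 of 37 members the level was highest in cocaine, then saline, then yoked replicate 1, an order found in 25.4% of genes. The ratio of cocaine to saline there varied more among members (SD across members 0.33 on the log2 scale) than in number 2 (0.12) or number 3 (0.18). It was 1.39 for Ndufa7, 1.34 for Ndufb8, 1.27 for Ndufa11, 1.26 for Ndufb7 and 1.20 for Ndufb2, and 8 members reached 1. It was 0.10 for Ndufs1, 0.26 for Ndufc2, 0.31 for Ndufb3, 0.32 for Ndufa10 and 0.37 for Ndufa1.

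This variation ran alongside base composition and length of the whole transcripts. The first 90 coding bases printed above do not separate high from low ratios. Ndufc2, with a low ratio, had 67.8% G and C there, above Ndufa7 (61.1%) and Ndufa11 (54.4%), with high ratios. Across the 37 members, the log2 ratio in number 1 had a Pearson correlation of 0.52 (Spearman 0.50) with the GC content of the representative transcript and -0.45 (Spearman -0.42) with its log2 length. These are descriptions across genes of the same pair of libraries, which differ in lane and in depth, and genes are not independent replicates. Over 14531 genes with a transcript the values were 0.25 for GC and -0.41 for length. The 19 members with the higher GC content had a median ratio of 0.90, and the 18 with the lower 0.50. In number 2 the correlation with GC was -0.19 and in number 3 -0.14, while that with length was -0.06 and 0.57. Members are short: their median transcript had 861 bases, against 2860 bases over all genes tested. A trend with length was also removed from each library, where length was the exon union and not the representative transcript. With that length trend removed, the median log2 fold change of cocaine over saline was 0.20 and that of cocaine over yoked 0.27. That of number 1 over numbers 2 and 3 was 0.80, with all 37 still called (edgeR). With the GC trend removed, a setting chosen after seeing the data, they were 0.34, 0.56 and 1.03.

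**Figure D4:**
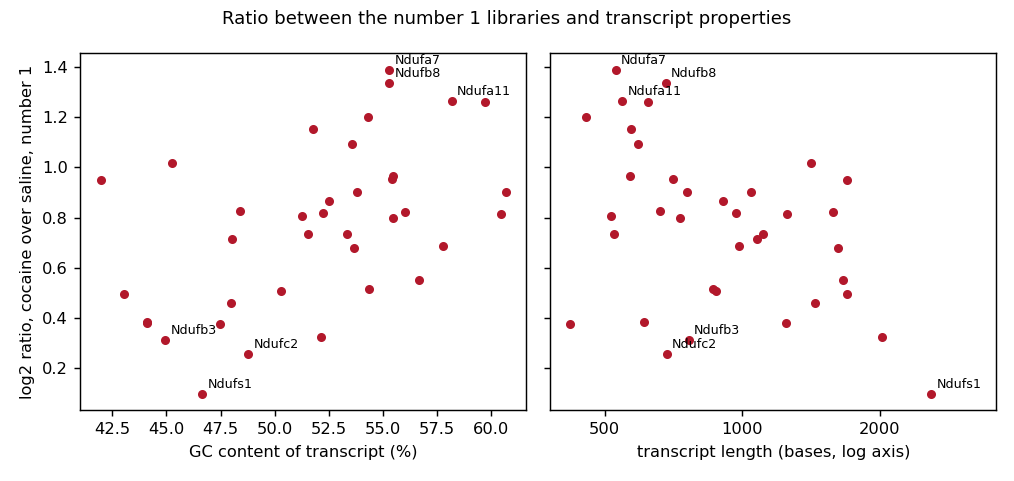
Log2 ratio of CPM between cocaine and saline IP replicate 1 (vertical axis) against GC content (left, %) and length (right, bases, log axis) of the representative transcript, 1 point per subunit gene (37). Ndufa7, Ndufb8 and Ndufa11 are at the top with 1.27 to 1.39 and Ndufs1 is lowest at 0.10, with the longest transcript of the members (2590 bases).

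The fractions were compared as the ratio of each IP library to the single unbound or input library of its own treatment. These log2 ratios were scaled over the 4 libraries of each comparison with a prior count of 2, so they differ slightly from ratios of the CPM printed, which were scaled over all 11. Over the cocaine unbound library, the median log2 ratio of the members was 1.69 in cocaine IP replicate 1, 0.26 in replicate 2 and 0.29 in replicate 3. At least a 2-fold excess was reached by 34 of 37 members in replicate 1 (15.9% of genes), by 0 in replicate 2 (3.30% of genes) and by 0 in replicate 3 (2.29% of genes). None was 2-fold higher in all 3 (0.429% of genes) or 2-fold lower in all 3 (2.07% of genes), and edgeR over all 11 libraries called none of the 37 (0.0111% of genes higher and 0.0443% lower), with 2 members, Ndufb5 and Ndufs8, at an unadjusted p under 0.05 (10.3% of genes). The test borrows the spread of the replicated groups for the single unbound library.

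Individual subunits differed in this ratio. Ndufa11 had 315.8, 81.3 and 94.1 CPM in the cocaine IP libraries and 53.6 CPM in the unbound library, with log2 ratios on the 4-library scale of 2.57, 0.65 and 0.84. Ndufs8 (1.99, 0.72 and 0.94) and Ndufb5 (2.03, 0.87 and 0.72) came next by mean. Ndufc1, a small single-span membrane subunit, had 99.1, 40.9 and 29.9 CPM in the IP libraries, against 82.2 CPM in the unbound library, with log2 ratios on the 4-library scale of 0.28, -0.96 and -1.43. On the 11-library scale the ratio in replicate 2 was -1.01, just past the 2-fold line. Ndufb3 had ratios of 0.64, -0.61 and -0.78, and Ndufa5 of 0.97, -0.02 and -0.22. Thus Ndufc1 and Ndufb3 were below the unbound level in replicates 2 and 3 and Ndufa11, Ndufs8 and Ndufb5 were above it in all 3. With the scaling refitted without cocaine replicate 1, Ndufc1 was 2-fold lower than unbound in both remaining replicates (mean log2 ratio -1.27), the only member to be so. The saline input library over the unbound library had a correlation of 0.55 with GC content across the 37 members (description, same pair of libraries). Over 14531 genes with a transcript that correlation was 0.32.

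Over the saline input library the ratios were smaller. The median log2 ratio was 0.61 in saline IP replicate 1, -0.16 in replicate 2 and 0.07 in replicate 3. Of the 37, 5 were at least 2-fold higher in replicate 1 (2.25% of genes), 0 in replicate 2 (0.452% of genes) and 0 in replicate 3 (0.512% of genes). No member was 2-fold higher (0.0742% of genes) or lower (0.0445% of genes) in all 3, and edgeR called none (0% of genes), with 0 at an unadjusted p under 0.05 (0.587% of genes). The highest mean log2 ratios were those of Ndufc1 (0.53 ± 0.53, SD, n = 3), Ndufb3 (0.45 ± 0.54) and Ndufb4 (0.44), and the lowest those of Ndufa7 (-0.04), Ndufs7 (0.0024) and Ndufs8 (0.06). Ndufc1 had 76.9, 39.6 and 39.6 CPM in saline IP libraries, against 34.0 CPM in input. Ndufc1 and Ndufb3 were therefore highest over input and lowest over unbound, while Ndufs8 was among the lowest over input and among the highest over unbound. The reference fraction, the treatment and the lane differ between these comparisons. The 2 reference libraries also differed directly: input over unbound had log2 ratios of -1.27 for Ndufc1, -0.77 for Ndufb3 and 0.84 for Ndufs8. In the unbound library 7.336% of reads were ambiguous between genes, against 1.555% to 1.907% in the other libraries.

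**Figure D5:**
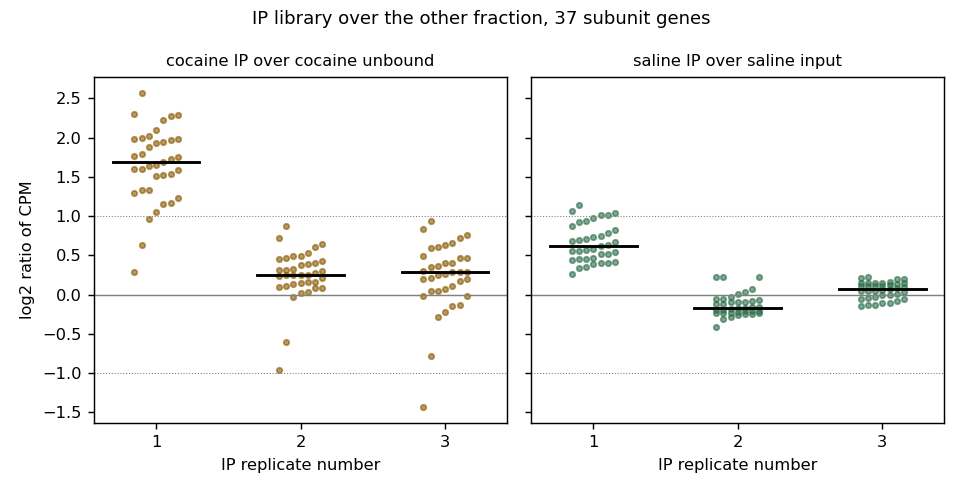
Log2 ratio of CPM of each IP replicate over the cocaine unbound library (left) and over the saline input library (right), 1 point per subunit gene, black lines at the median of the 37, dotted lines at a 2-fold difference. The median of replicate 1 is the highest in both panels, at 1.69 over unbound and 0.61 over input.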

How the data were processed

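Reads were aligned with STAR 2.0.0e to mm10 and counted with HTSeq, per the submitters' processing notes; which annotation and strand setting were used is not given in the sources used here. The authors deposited raw read counts per gene, 1 file per library, with 32531 named genes; 44.9% to 52.5% of reads were in genes and 28.3% to 47.05% mapped to several places. Library sizes were summed over named genes.

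Counts were tested with edgeR 4.0.16 (R 4.3.3): TMM scaling, filterByExpr, robust quasi-likelihood test, Benjamini-Hochberg adjustment over all 16417 genes, threshold 0.05. Treatments were fitted as 3 group means over the 9 IP libraries, and replicate number was fitted beside treatment. CPM are TMM-scaled over 11 libraries. Log2 ratios used a prior count of 2 and TMM factors of their own, over the 9 IP libraries within replicate numbers and over the 4 libraries of each fraction comparison. Scripts were tested on simulated data. DESeq2 1.42.0, other scalings and filters, length and GC trends and the replicate block were tried. Deviations of same-numbered libraries were correlated (every pair's correlation 0.376 to 0.795). Without values for libraries of different numbers beside them, these do not show that the numbers pair the libraries. The labels themselves say nothing of a shared day or animal.

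The members and lists were chosen with earlier results of these data known. Members given with values were the core subunits, Ndufa4, Ndufab1, the 5 highest and 5 lowest in the number contrast and the 3 highest and 3 lowest in each other contrast; further members were named after their values were seen. Ndufb1 and Ndufaf8 were not analysed here, and the values of 1 core subunit are counted in the summaries but not reported here. Depths bound counting error only.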

Additional observations from a re-analysis of the deposited data

How the results depend on the processing

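Of 324 recomputed main summaries, 319 kept their direction and their side of the threshold; the exceptions were medians and 1 count without a library numbered 1. The count of members called higher in the libraries numbered 1 was 37 in every setting except without a filter on low counts, where it was 35, and the median ranged from 0.80 to 1.06 (0.69 to 1.14 leaving out a library). No treatment contrast called a member under any setting, DESeq2 included. Leaving out a library, the median ranged from -0.23 to 0.68 for cocaine against saline, from -0.0893 to 0.85 for cocaine against yoked and from -0.41 to 0.13 for yoked against saline, and 0 to 1 members were 2-fold below unbound in all replicates.

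The replicate block changed no call; its medians are 0.31, 0.46 and -0.16, as given above.

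Single members changed sign in 51 of 762 recomputed values, and the cause was not tested. For yoked against saline, Ndufs7 was 0.002851 with RLE scaling, 0.006521 with at least 10 CPM, 0.002864 with DESeq2, 0.02282 without the length trend and 0.01587 without it in the block. Ndufa3 was -0.02342 without the GC trend, -0.0326 without it in the block (both chosen after seeing the data), -0.01111 in the block, -0.00228 with only the 6 libraries compared and -0.05124 without number 1. For cocaine against saline, Ndufc1, Ndufb3 and Ndufc2 were -0.1311, -0.155 and -0.1459 without the length trend, -0.1484, -0.1288 and -0.1104 without it in the block, and -0.1564, -0.08931 and -0.03349 without number 1, where Ndufa11 was -0.02047. Ndufb3 for cocaine against yoked was -0.02692 without the length trend.

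Leaving out a library, cocaine against saline ranged from -0.2211 to 1.114 (Ndufa7), -0.1295 to 1.036 (Ndufb8), -0.2408 to 0.9726 (Ndufa11), -0.5576 to 0.5378 (Ndufc1), -0.4905 to 0.5278 (Ndufb3) and -0.4442 to 0.532 (Ndufc2). Yoked against saline ranged from -0.3882 to 0.5109 (Ndufs1), -0.2258 to 0.1812 (Ndufa3), -0.2178 to 0.1578 (Ndufs7), -0.6682 to 0.08638 (Ndufc2), -0.6582 to 0.07196 (Ndufc1) and -0.5179 to 0.04016 (Ndufb4). Cocaine against yoked ranged from -0.1036 to 1.246 (Ndufa7), -0.1674 to 1.181 (Ndufb2), -0.1352 to 0.7305 (Ndufa10), -0.2852 to 0.7831 (Ndufb3) and -0.304 to 0.5433 (Ndufs1).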
